A study of Mus musculus with 6 samples.

Results

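The insulin-like growth factor 1 (IGF1) axis was followed here through 10 genes in 6 mesenchymal stromal cell cultures, all grown from the bone marrow of mice. The genes were Igf1, its receptor gene Igf1r, the binding protein genes Igfbp1 to Igfbp7 and Pappa. They were picked out by symbol from 22311 named genes on the array, and all 10 were measured, each by 1 probe set. Expression is given as the deposited log2 value after RMA, the authors' background correction and normalisation across arrays, so that a step of 1 is a doubling. The tetraploid samples were a primary culture (tetraploid I), a cell line (tetraploid II) and an artificially tetraploid clone (tetraploid III). The diploid samples were a clone (diploid I) and a pair of primary cultures (diploid II and III). Per the labels, a commercial stem cell medium was used for every culture, and ploidy was assigned by DNA content and checked by SKY analysis. Strain, age and passage are not given in the labels, nor is the parent of the artificially tetraploid clone or of the line, and each sample was 1 array.

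IGF1 is a secreted growth factor that signals through the receptor tyrosine kinase IGF1R to the insulin receptor substrates, PI3K, AKT and mTOR. In the fluid around cells it is held by IGF binding proteins (IGFBP1 to IGFBP6), which limit or deliver it to the receptor, while IGFBP7 binds IGFs only weakly. Proteases such as pappalysin (PAPP-A) cut the binding proteins and release the ligand, and in marrow stroma this local IGF supply is known to act on bone-forming cells.

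Several arrays stood apart in ways that touch these genes. The Y-linked gene Ddx3y was at 9.80 in tetraploid II and between 3.88 and 4.23 elsewhere. The X-linked gene Xist was at 3.68 in tetraploid II and between 9.71 and 11.04 elsewhere. In tetraploid II the stromal markers Eng (endoglin) and Thy1 lay at 3.80 and 3.96, below the array median. Eng lay between 8.80 and 10.78 on the other 5 arrays, and Thy1 ranged there from 4.35 to 10.82. Thy1 was also below the median in diploid III, Nt5e (CD73) in tetraploid I, tetraploid II and diploid III, and Lepr on all 6 arrays. Of the 16 listed stromal markers, 12 to 15 were above the median of their own array in each sample. Diploid III had the narrowest values, with an interquartile range of 2.75 against 3.16 to 3.24 elsewhere, and it held the highest value for 38.5% of all genes. The endothelial cadherin gene Cdh5 was at 11.03 in diploid III and between 3.70 and 3.79 elsewhere, while Pecam1, another endothelial marker, was at 4.18 there, below the array median. In cultures such as these, fewer cells of a type and less RNA per cell cannot be told apart.

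For none of the 10 genes did the difference between tetraploid and diploid cultures pass the test across all probe sets. The adjusted threshold was passed by 0 members, against 0% of 25917 named probe sets (limma, Benjamini-Hochberg, smallest adjusted p = 0.876). At an unadjusted p under 0.05 there were also 0 members in either direction, against 5.14% of all probe sets (higher in tetraploid cultures for 3.08% and lower for 2.06%). The 3 tetraploid and 3 diploid values overlapped for all 10 genes, whereas 12.1% of all probe sets had no overlap (4.97% higher and 7.1% lower). The mean was higher in the tetraploid samples for 4 members and lower for 6, beside 40.1% and 59.9% of all probe sets. The median log2 difference was -0.03 for the members and -0.04 for all named probe sets. An exact permutation test of 3 samples against 3 cannot give a p under 0.1. Whether the cultures came from separate animals is not given, and the p-values therefore cover only how much these 6 samples varied.

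What the cultures did show was a wide spread among themselves. Of the 10 genes, 5 varied by 2 or more on the log2 scale over the 6 arrays, beside 9.37% of all genes. Igfbp5 had the largest range of the members, 7.59, and 10 of 22311 genes varied as much. Igfbp2, Igfbp3, Igfbp4 and Igf1 ranged over 5.89, 5.11, 4.37 and 3.89. Igf1r, Igfbp1, Igfbp6, Igfbp7 and Pappa ranged over less than 2, with Igfbp1 the narrowest at 0.11.

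**Figure D1:**
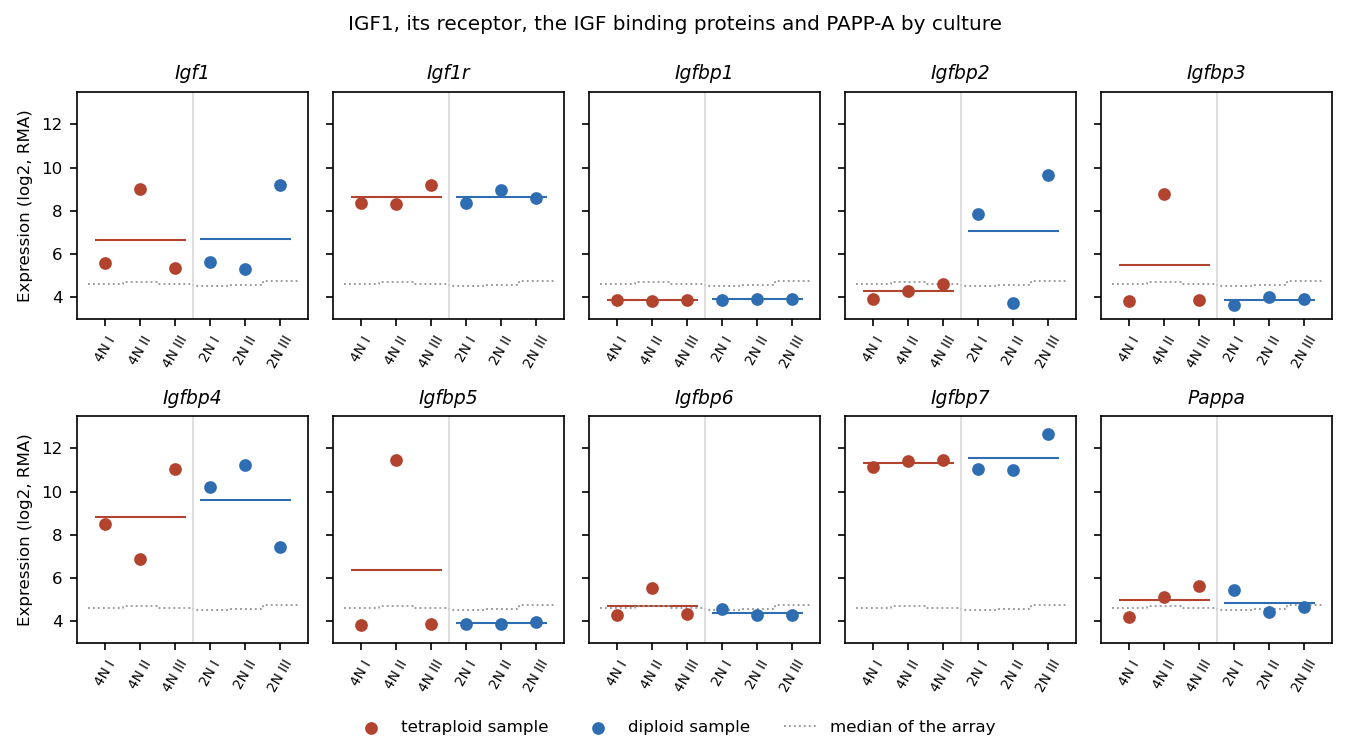
Log2 expression of the 10 genes in each culture, tetraploid samples (red, 4N) left of diploid samples (blue, 2N), 1 point per array. Horizontal lines are the means of 3 samples and dotted lines the median of each array; the high values of Igf1 lie in tetraploid II and diploid III, and those of Igfbp3 and Igfbp5 in tetraploid II.

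Promoter sequences are shown for 4 of the genes with the widest ranges, because their values by culture carry the account. Igf1 and Igfbp4 placed the cultures in nearly opposite order, and Igfbp3 and Igfbp5 were high in the same single culture. Igfbp2, which ranged over 5.89, is not among the 4 shown. Each sequence is the 250 bases before the gene's start in RefSeq (GRCm38.p6), 5′ to 3′ on the gene's strand, and 3 motifs were searched on both strands. These were the TATA box, spelled TATAAA, the box known by its letters as CCAAT, and the GC box, spelled GGGCGG. Capitals mark their matches, which do not overlap.
Igf1 (chr10:87860861-87861110, plus strand): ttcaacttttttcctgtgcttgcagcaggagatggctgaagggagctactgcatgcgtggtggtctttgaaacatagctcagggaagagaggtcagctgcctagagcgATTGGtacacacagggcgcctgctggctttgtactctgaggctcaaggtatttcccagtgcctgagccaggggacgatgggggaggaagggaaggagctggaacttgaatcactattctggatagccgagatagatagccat
Igfbp4 (chr11:99040994-99041243, plus strand): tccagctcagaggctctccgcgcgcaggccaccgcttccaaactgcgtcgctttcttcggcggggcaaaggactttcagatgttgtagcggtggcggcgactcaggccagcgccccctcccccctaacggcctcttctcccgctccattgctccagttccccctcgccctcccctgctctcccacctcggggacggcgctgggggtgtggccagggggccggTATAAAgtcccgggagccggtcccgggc
Igfbp3 (chr11:7213924-7214173, minus strand): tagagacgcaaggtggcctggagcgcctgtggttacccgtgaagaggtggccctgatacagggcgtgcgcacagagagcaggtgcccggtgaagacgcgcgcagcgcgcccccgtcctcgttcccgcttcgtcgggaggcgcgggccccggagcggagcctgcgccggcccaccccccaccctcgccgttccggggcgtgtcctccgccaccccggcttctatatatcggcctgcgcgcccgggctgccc
Igfbp5 (chr1:72874866-72875115, minus strand): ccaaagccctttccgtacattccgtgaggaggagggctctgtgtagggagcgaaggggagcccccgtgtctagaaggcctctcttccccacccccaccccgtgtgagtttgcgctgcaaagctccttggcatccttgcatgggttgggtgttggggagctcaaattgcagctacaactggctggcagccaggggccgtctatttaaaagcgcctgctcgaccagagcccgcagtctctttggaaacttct

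The only TATAAA among these 4 windows was in Igfbp4, from 28 to 23 bases before the start, and 12.4% of 32851 promoter windows of the same length hold one. The capitals in Igf1 are CCAAT on the opposite strand, a match found in 33.8% of windows, and GGGCGG, found in 32.7%, had no match in the 4. Igfbp3 and Igfbp5 held none of the 3 motifs as spelled here. Other spellings of a TATA box were not searched, and the Igfbp3 window has tatatat near its end. Whether either gene lacks a TATA box is therefore not shown. Of the Igfbp2 windows, which are not shown, that at chr1:72824230-72824479 held 3 matches to GGGCGG and the other held none. The Igfbp3 window held 32 CG dinucleotides, a number reached by 4.58% of windows, against 22 in Igfbp4, 10 in Igfbp5 and 5 in Igf1. The median over all windows was 6. These matches describe letters only. RefSeq windows were found for 9 of the 10 genes.

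Igf1, the ligand gene, was high in 1 culture of each ploidy. Its values were 5.59, 9.02 and 5.35 in tetraploid I to III, against 5.63, 5.30 and 9.19 in diploid I to III. The cell line tetraploid II and the primary culture diploid III thus lay at least 3.38 above the other 4, which fell within 0.33 of each other. The difference was -0.06 (SE 1.46, 95% interval -3.69 to 3.58; limma, adjusted p = 0.994). It was 1.18 without diploid III and -1.24 without tetraploid II, and it was also above 0 without tetraploid I (0.47) and without tetraploid III (0.60). Without both tetraploid II and diploid III, a pair chosen after the values were seen, the other 4 cultures gave 0.003.

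The average of the listed fat cell markers was highest in the same 2 cultures as Igf1, though not each marker was. The adipocyte list of 8 markers averaged 6.18 in tetraploid II and 5.96 in diploid III, against 4.17 to 4.93 in the other 4 cultures. Fabp4, the fatty acid carrier of adipocytes, had 7.24, 9.66 and 4.95 in tetraploid I to III, against 4.66, 4.43 and 10.78 in diploid I to III. Pparg, the master regulator of fat cell formation, had 7.72, 9.76 and 5.83 in the tetraploid cultures, against 5.34, 5.51 and 8.80 in the diploid cultures. Cebpa and Adipoq also had their 2 highest values in tetraploid II (8.67 and 6.41) and diploid III (7.72 and 4.43). In diploid III, however, Adipoq was below the array median. Of the 8 markers, 4 were below the median on all 6 arrays, among them Cidec and Plin1, which coat the lipid droplets of mature fat cells. Plin1 was highest in diploid III, at 4.27, and next in tetraploid II, at 4.10. Cidec was highest in tetraploid I, at 3.63, and lowest in tetraploid II, at 3.48. Lep and Retn, also below the median throughout, were highest in diploid III (4.13 and 4.04). Both were higher in tetraploid III (3.75 and 3.93) than in tetraploid II (3.65 and 3.74). The part of adipocyte markers in the Igf1 values was not tested.

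Macrophages also make IGF1, so the myeloid list was set beside it. Of its 12 markers, 8 lay below the array median on all 6 arrays, and the leukocyte gene Ptprc was at 3.79 in tetraploid II and 4.25 in diploid III, below the median of each array. The macrophage receptor gene Csf1r was at 3.99 and 4.29 there, also below it. Cd68 and Lyz2, lysosomal genes of the list, were highest in tetraploid II, at 7.97 and 7.0. They lay between 3.97 and 4.96 and between 3.64 and 4.48 in the other cultures. Cd14, a receptor gene of monocytes, was above the median of every array and highest in diploid III, at 7.46, which lay 1.37 above the next culture. The part of myeloid markers in the Igf1 values was not tested.

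The genes most like Igf1 in pattern were Serpinb9g, Bace2 and Mela, each with a Pearson r over 0.998 over the 6 arrays. They were sought among 2086 genes with a range of 2 or more, members left out, and 25 of these had an r over 0.95. Igf1 was added to this search after its values were seen. Bace2, a membrane protease gene, had 4.05, 7.68 and 3.97 in tetraploid I to III, against 4.10, 3.90 and 8.09 in diploid I to III. The correlation rests on the same high pair of cultures and is given as a description.

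Igf1r, the gene of the receptor, was above the median of every array. Its range over the 6 arrays was 0.88, and 36.2% of all genes ranged as widely. Its values were 8.39, 8.31 and 9.20 in tetraploid I to III, against 8.38, 8.95 and 8.62 in diploid I to III. The order from low to high was tetraploid II, diploid I, tetraploid I, diploid III, diploid II and tetraploid III, with no step larger than 0.33. The difference was -0.02 (SE 0.29, 95% interval -0.74 to 0.70; limma, adjusted p = 0.990). The interval leaves room for a difference of up to 0.74 in size on the log2 scale. The cultures richest in Igf1 transcript held the lowest value of Igf1r (tetraploid II) and a middle value (diploid III).

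Igf1r has a known link to H19, the RNA named in the study's title. H19 is the precursor of miR-675, which lowers Igf1r in mouse placenta. Both mature arms from RefSeq (GRCm38.p6) are shown with the seed, bases 2 to 8, in capitals, because the arrays measured the precursor and its reported target.
mmu-miR-675-3p (chr7:142577078-142577099, minus strand): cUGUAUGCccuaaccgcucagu
mmu-miR-675-5p (chr7:142577112-142577133, minus strand): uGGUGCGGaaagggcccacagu

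H19 was at 3.92, 3.97 and 3.75 in tetraploid I to III, against 8.36, 10.46 and 8.33 in diploid I to III. Its groups did not overlap, whereas those of Igf1r did. The H19 difference was -5.17 (SE 0.61; limma, unadjusted p = 0.00021, adjusted p = 0.876), beside -0.02 for Igf1r. The other H19 probe set gave -3.33 (SE 0.52; limma, unadjusted p = 0.00090, adjusted p = 0.876). The tetraploid values of both H19 probe sets lay below the array medians, so the size of the H19 difference is uncertain. The miRNA itself was not analysed here.

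Igfbp1, the binding protein gene that the liver switches on in fasting, was below the array median on all 6 arrays. Its values ran from 3.82 to 3.90 in the tetraploid cultures, against 3.86 to 3.93 in the diploid cultures. All 6 hepatocyte markers were also below the median of every array. Igfbp1 and Igfbp3 are direct neighbours in the RefSeq gene order (GRCm38.p6), with 0 genes between them, and of the pair only Igfbp3 was above the array median in any culture.

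Igfbp2, whose protein carries IGFs and can bind integrins, gave the largest negative difference of the 10 genes. It had 3.94, 4.28 and 4.59 in tetraploid I to III, against 7.84, 3.76 and 9.65 in diploid I to III. The clone diploid I and the primary culture diploid III lay at least 3.24 above every other culture, and diploid II was the lowest of all 6. The difference was -2.81 (SE 1.49, 95% interval -6.52 to 0.90; limma, unadjusted p = 0.112, adjusted p = 0.876). Without diploid II it was -4.47 (limma, unadjusted p = 0.00107, adjusted p = 0.778), and without diploid III it was -1.53. The tetraploid values lay below the median of their arrays, so the size of the difference is uncertain.

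Pcolce2, Bmp6 and Pear1 were most like Igfbp2 over the 6 arrays, with r of 0.982, 0.960 and 0.952. Of the 2086 candidates, 3 had an r over 0.95. Bmp6, a bone morphogenetic protein gene, had 4.03, 4.14 and 4.07 in tetraploid I to III, against 5.31, 4.02 and 7.34 in diploid I to III. Igfbp2 and Igfbp5 are also direct neighbours in the RefSeq order, with 0 genes between them. Their patterns were unlike, since Igfbp5 was at 3.88 in diploid I and 3.98 in diploid III, where Igfbp2 was high.

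Igfbp3 and Igfbp5 were high in tetraploid II and in no other culture. Igfbp3, whose protein is the main IGF carrier of blood serum, had 3.82, 8.77 and 3.87 in tetraploid I to III, against 3.66, 4.02 and 3.94 in diploid I to III. Igfbp5, whose protein binds matrix and is abundant in bone, had 3.85, 11.44 and 3.89 in the tetraploid cultures, against 3.88, 3.90 and 3.98 in the diploid cultures. Tetraploid II lay 4.75 above the next culture for Igfbp3 and 7.47 above it for Igfbp5. Gaps as large were found in 28 and 2 of the 22311 genes, each count including the gene itself. In the other 5 cultures both genes were below the median of the array.

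The mean differences of the 2 genes were those of 1 library. For Igfbp3 the difference was 1.61 (SE 1.40, 95% interval -1.87 to 5.10; limma, adjusted p = 0.876), and -0.03 without tetraploid II. For Igfbp5 it was 2.48 (SE 2.14, 95% interval -2.87 to 7.82; limma, adjusted p = 0.876), and -0.05 without tetraploid II. Tetraploid II held the highest value by 4 or more for 22 genes, against 4 genes in tetraploid I, 17 in diploid III and 0 in each of the others.

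Dmrt2, Sparcl1 and Ldb2 were most like Igfbp5, and Armh4, Ldb2 and Dmrtc1c1 most like Igfbp3, all with r over 0.998. Ldb2, on both lists, encodes a LIM domain binding protein and had 3.94, 8.56 and 3.90 in tetraploid I to III, against 3.99, 4.08 and 4.06 in diploid I to III. For Igfbp5, 96 of the 2086 candidates had an r over 0.95, and for Igfbp3, 94. These r values rest on 1 culture.

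Igfbp6, whose protein prefers IGF2 to IGF1, was also highest in tetraploid II, at a smaller scale. It had 4.31, 5.52 and 4.35 in tetraploid I to III, against 4.56, 4.29 and 4.30 in diploid I to III. Tetraploid II lay 0.97 above the next culture, and 2 of 6 values were above the array median. The difference was 0.35 (SE 0.35; limma, adjusted p = 0.876) and -0.05 without tetraploid II.

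Igfbp4, whose protein is a substrate of PAPP-A and restrains IGF action in bone cell cultures, was above the array median in every culture and spread widely. Its values were 8.51, 6.87 and 11.07 in tetraploid I to III, against 10.21, 11.24 and 7.42 in diploid I to III. The lowest values were those of tetraploid II and diploid III, the cultures with the highest Igf1, and the highest was that of diploid II, which had the lowest Igf1. The difference was -0.81 (SE 1.42, 95% interval -4.35 to 2.73; limma, adjusted p = 0.901). It was 0.16 without tetraploid II and 0.001 without diploid II, and it was -1.91 without diploid III and -1.94 without tetraploid III. Added to the search after its values were seen, Igfbp4 was most like Spidr, Cdkn2aipnl and Gfra2, with r of 0.984, 0.974 and 0.972.

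Igfbp7, which encodes a secreted protein also abundant in vessel walls, was high in every culture. It had 11.13, 11.44 and 11.47 in tetraploid I to III, against 11.04, 11.01 and 12.68 in diploid I to III. Diploid III lay 1.21 above the next culture, and the other 5 lay within 0.46 of each other. The difference was -0.23 (SE 0.48; limma, adjusted p = 0.917), and 0.32 without diploid III (limma, unadjusted p = 0.0655, adjusted p = 0.723). All 3 tetraploid values lay above the other 2 diploid values, and the share of all probe sets that did so was not counted. Cdh5 and Flt1, endothelial genes, were also highest in diploid III, at 11.03 and 7.32, while 7 of the 10 endothelial markers were below its array median. The part of endothelial markers in the Igfbp7 value was not tested.

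**Figure D2:**
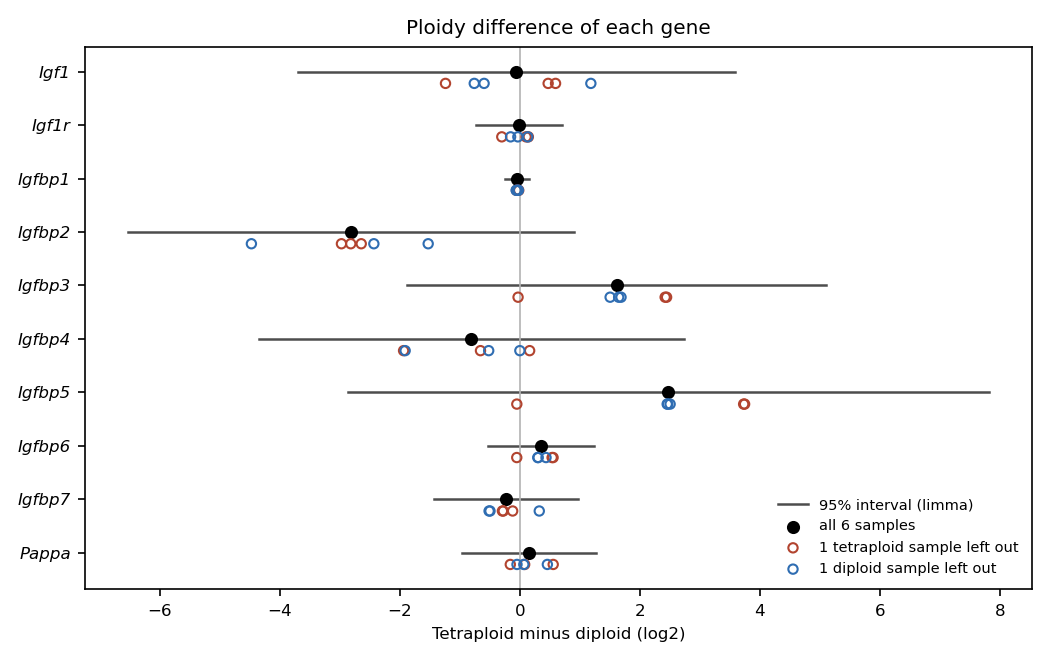
Tetraploid minus diploid log2 difference of each gene over all 6 samples (black points) with its 95% interval from limma, and the same with 1 sample left out (open circles, red for a tetraploid and blue for a diploid sample). Every interval includes 0, and for Igfbp3 and Igfbp5 the circle near 0 is the fit without tetraploid II.

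Pappa, the gene of the protease that frees IGF from IGFBP4, was near the middle of the arrays. It had 4.20, 5.15 and 5.63 in tetraploid I to III, against 5.43, 4.42 and 4.65 in diploid I to III. The 3 cultures above their array median were tetraploid II, tetraploid III and diploid I, which are the lines and clones. The 3 primary cultures, tetraploid I, diploid II and diploid III, were the lowest. The share of all genes that split in this way by origin was not counted, and a link of Pappa to origin was not tested. The ploidy difference was 0.16 (SE 0.45; limma, adjusted p = 0.940), and -0.19 with origin as a covariate.

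Pappa2, a relative of Pappa whose protein cuts IGFBP3 and IGFBP5, was high in the culture that held both of these transcripts. Its values were 4.10, 7.72 and 4.03 in tetraploid I to III, against 4.52, 4.15 and 4.09 in diploid I to III. The other 2 Pappa2 probe sets were also highest in tetraploid II, at 7.39 and 6.76, with the other cultures between 3.57 and 4.32. The difference was 1.03 (SE 1.04; limma, adjusted p = 0.876). In all 3 probe sets tetraploid II lay at least 2.45 above the next culture. Tetraploid II was highest by 1 or more for 346 of 22311 genes. A link between Pappa2 and the Igfbp3 and Igfbp5 values was not tested.

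Other enzymes that cut IGF binding proteins were spread across the cultures. Adam12, which encodes a metalloprotease that cuts IGFBP3 and IGFBP5, had 5.60, 7.81 and 5.11 in tetraploid I to III, against 7.64, 7.32 and 8.73 in diploid I to III. Tetraploid II thus lay within the diploid range and the other tetraploid cultures below it, and the difference was -1.72 (SE 0.79; limma, unadjusted p = 0.0767, adjusted p = 0.876). Htra1, which encodes a secreted serine protease that cuts IGFBP5, was at 8.75 in tetraploid I and between 10.07 and 12.07 in the others. The stanniocalcins STC1 and STC2 inhibit PAPP-A, and their genes were also measured. Stc1 had 4.41, 4.61 and 7.87 in tetraploid I to III, against 6.18, 6.48 and 5.24 in diploid I to III, and Stc2 ranged from 5.97 in tetraploid I to 8.65 in diploid III. Htra1, Stc1 and Stc2 were named after their values were seen.

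**Figure D3:**
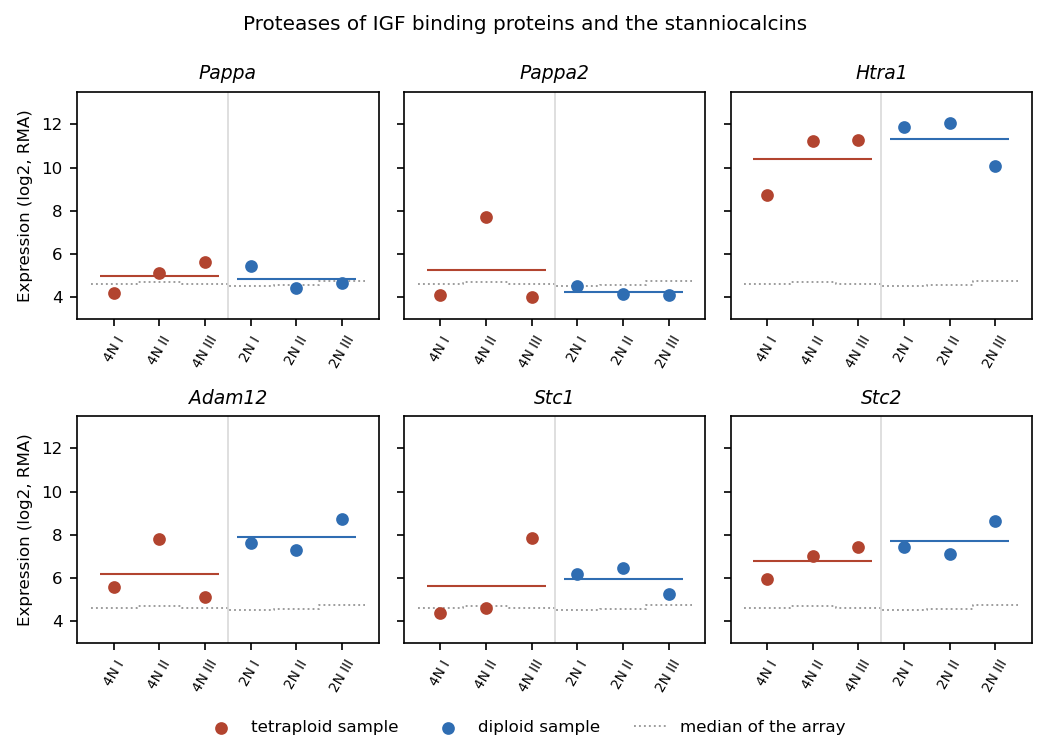
Log2 expression of genes for proteases of IGF binding proteins (Pappa, Pappa2, Htra1, Adam12) and of the PAPP-A inhibitors Stc1 and Stc2 by culture, tetraploid samples (red, 4N) left of diploid samples (blue, 2N), with group means as lines and array medians dotted. Pappa2 is above the array median in tetraploid II only, at 7.72.

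Of 52 other genes of the IGF pathway, 2 had an unadjusted p under 0.05, both higher in the tetraploid cultures, beside 3.08% of all probe sets in that direction. None passed the adjusted threshold (limma, smallest adjusted p = 0.876). The mean was higher in the tetraploid cultures for 28 and lower for 24, with a median difference of 0.04. The 2 genes were also the only ones of the 52 whose groups did not overlap, against 4.97% of all probe sets that lay higher without overlap.

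Rictor, which encodes the defining subunit of the mTOR complex that activates AKT, had 8.54, 8.23 and 7.40 in tetraploid I to III, against 6.91, 7.30 and 6.84 in diploid I to III. The closest values of the groups, those of tetraploid III and diploid II, were 0.10 apart. The difference was 1.04 (SE 0.32; limma, unadjusted p = 0.0199, adjusted p = 0.876).

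Among the other ligands and receptors, Igf2, the fetal growth factor gene, had 5.79, 4.98 and 6.30 in tetraploid I to III, against 4.63, 6.75 and 4.74 in diploid I to III. Igf2r, whose protein clears IGF2, ran from 8.20 to 9.70 in the tetraploid cultures, against 8.18 to 9.73 in the diploid cultures. Insr, the insulin receptor gene, ran from 8.30 to 8.70 in the tetraploid cultures, against 7.85 to 8.45 in the diploid cultures. The groups of all these genes overlapped, and Ins1, Ins2 and Insrr were below the median on every array.

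Receptor adaptors held some of the widest ranges of the pathway. Grb10, an imprinted adaptor gene whose protein restrains IGF1R and the insulin receptor, had 6.80, 10.18 and 4.65 in tetraploid I to III, against 3.78, 4.22 and 10.11 in diploid I to III. Its 2 highest cultures were thus those of Igf1. Irs1, which encodes the main docking protein of IGF1R, had 8.72, 10.40 and 7.15 in the tetraploid cultures, against 5.64, 7.73 and 7.78 in the diploid cultures. The Irs1 difference was 1.70 (95% interval -0.79 to 4.19; limma, adjusted p = 0.876), and the gene was named after its values were seen. Shc1, another adaptor gene, differed by -0.46 (SE 0.25; limma, adjusted p = 0.876).

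**Figure D4:**
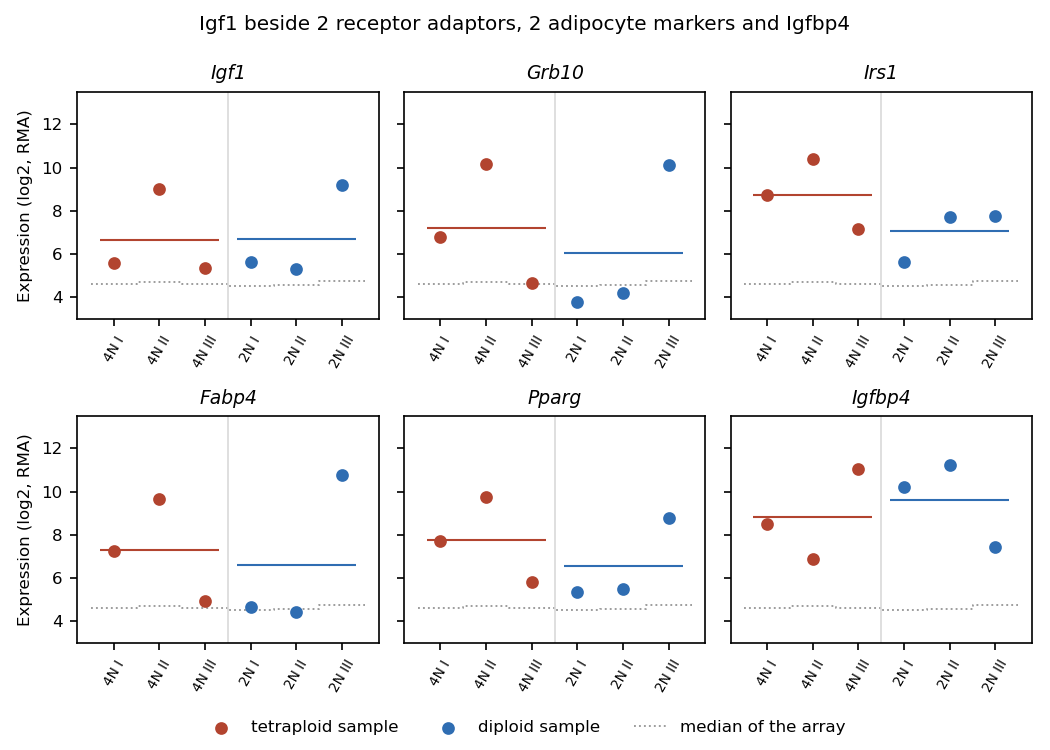
Log2 expression of Igf1, the adaptor genes Grb10 and Irs1, the adipocyte markers Fabp4 and Pparg, and Igfbp4 by culture, tetraploid samples (red, 4N) left of diploid samples (blue, 2N), with group means as lines and array medians dotted. Igf1, Grb10, Fabp4 and Pparg share their 2 highest cultures, tetraploid II and diploid III, which are the 2 lowest of Igfbp4. Tetraploid I came next for Grb10, Fabp4 and Pparg (6.80, 7.24 and 7.72), while its Igf1 (5.59) lay with the low cultures. Diploid III was highest for 38.5% of all genes and tetraploid II for 15.6%, and the share with both on top was not counted.

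Foxo1, the transcription factor gene whose protein AKT shuts out of the nucleus, was also highest in those cultures, at 7.16 in tetraploid II and 8.53 in diploid III, with the others between 5.44 and 5.89. All 18 genes of the PI3K, AKT, mTOR and FOXO group were above the array median in every culture, and 1 of them, Foxo1, ranged over 2 or more. Ghr, the growth hormone receptor gene, had 8.02, 9.84 and 8.56 in tetraploid I to III, against 8.54, 7.93 and 7.19 in diploid I to III. Socs2, a feedback inhibitor gene of growth hormone signalling, was lowest in diploid III at 6.44 and between 8.45 and 9.34 elsewhere. A dimmer Socs2 probe set had no overlap, with 5.44 to 5.67 in the tetraploid cultures, against 4.72 to 5.32 in the diploid cultures (limma, difference 0.52, unadjusted p = 0.0280, adjusted p = 0.876). The tetraploid mean was above the diploid mean for 5 of 5 growth hormone input genes and 3 of 3 IGF2 mRNA-binding protein genes, beside 40.1% of all probe sets. It was above for 3 of 6 other ligands and receptors, 4 of 10 extracellular regulators, 5 of 10 adaptors and brakes and 8 of 18 genes of the PI3K group. Among the growth hormone input genes, Stat5a and Stat5b differed by only 0.05 and 0.08. Igf2bp1 was at 6.44 in tetraploid I and 3.71 to 4.22 elsewhere, and its other probe set ran the other way, at -0.07. Among the IGF2 mRNA-binding protein genes, Igf2bp3 was at 7.92 in tetraploid I and 4.24 to 4.51 elsewhere, and Igf2bp2 was at 6.13 in diploid III and 8.26 to 8.74 elsewhere.

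**Figure D5:**
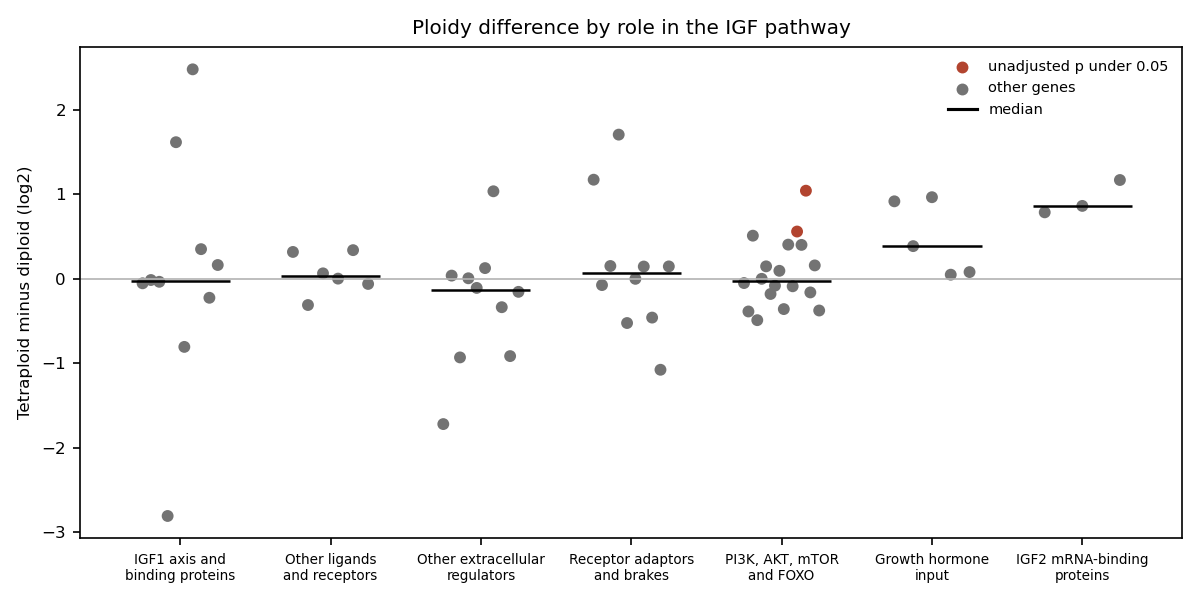
Tetraploid minus diploid log2 difference of each gene, grouped by role in the pathway, 1 point per gene with the median as a line. The 2 red points are the genes with an unadjusted p under 0.05, Rictor being the higher of them at 1.04.

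Origin was partly mixed with ploidy, so the difference was also taken within each origin. The primary cultures set tetraploid I against diploid II and III. The line and the clones set both tetraploid II and III against the clone diploid I. For Igf1 it was -1.65 (SE 2.40) in primary cultures and 1.55 (SE 2.40) in lines and clones. Igfbp2 gave -2.77 (SE 2.65) in primary cultures and -3.40 (SE 2.65) in lines and clones. In the primary cultures tetraploid I, at 3.94, lay above diploid II, at 3.76, and below diploid III, at 9.65. In the same order of origins, Igfbp3 gave -0.16 (SE 2.21) and 2.66 (SE 2.21), and Igfbp5 gave -0.09 (SE 3.40) and 3.79 (SE 3.40). The difference between origins did not pass for any of the 10 genes (limma, smallest unadjusted p = 0.302 for Igf1r, adjusted p above 0.99 for each). Over all probe sets 0% passed the adjusted threshold and 2.68% had an unadjusted p under 0.05. Tetraploid I and diploid I were lone samples of their kind and were assumed to vary like the others. With 1 further sample left out, the spread of this fit came from 1 pair of cultures, so the members' p-values there are not read.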

How the data were processed

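Per the labels, biotin-labelled total RNA was measured by the Affymetrix standard protocol. The authors' deposited values are log2 expression, 1 value per probe set and array. RMA and Partek are named in the submitters' processing notes, and a genome build is not given in the sources used here. The authors' deposited comparison table gave symbols, an unadjusted p-value and a score, the signed fold of diploid over tetraploid, per the file headers. It also held 6 per-sample columns whose names match no label, which were not used here.

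Symbols were updated through RefSeq (GRCm38.p6). Of 35399 probe sets, 25917 had a symbol, and each of 22311 genes was represented by its brightest probe set on average. Tetraploid and diploid samples were compared over all named probe sets, dim ones included, by the two-sided moderated test of limma 3.58.1 (R 4.3.3), and p-values were adjusted by Benjamini-Hochberg. A second limma fit had 1 mean per ploidy and origin. The limma step was tested on simulated data. Depth is not defined for arrays, and their number limits the precision.

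The members and gene lists were chosen with earlier results of these data known. The text names all members. Of the pathway genes it names Igf2, Igf2r, Insr, those at an unadjusted p under 0.05, and the smallest p and widest range in each role. It also names up to 2 markers of widest range per list and the 3 genes most like each of the 3 widest-ranging members. Of these, 1 pathway gene is counted but not reported here by name. Other names were chosen after their values were seen. Alternatives were other normalisations, filters, variance models, weights, a repeat block, origin, other sets of probe sets, the authors' table and leaving out samples. Figures were drawn with matplotlib 3.10.9.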

Additional observations from a re-analysis of the deposited data

How the results depend on the processing

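No member passed the adjusted threshold in any of 175 differences under alternatives, which came from limma, an ordinary linear model and the authors' deposited table, and 151 kept their direction. Igfbp2 alone of the 10 genes kept its direction throughout. With 1 replicate left out, the differences lay between -1.24 and 1.18 for Igf1, -0.30 and 0.14 for Igf1r, -4.47 and -1.53 for Igfbp2, -0.029 and 2.45 for Igfbp3, -1.94 and 0.16 for Igfbp4, -0.049 and 3.75 for Igfbp5, -0.050 and 0.55 for Igfbp6, -0.51 and 0.32 for Igfbp7, and -0.16 and 0.56 for Pappa. Directions also turned with quantile normalisation for Igfbp1 (0.011), with array weights for Igf1 (0.82) and Igfbp7 (0.23), and with origin as a covariate for Pappa (-0.19). Leaving out both tetraploid II and diploid III, chosen after seeing the data, gave 0.0028 for Igf1, 0.13 for Igf1r, -0.020 for Igfbp5, -0.092 for Igfbp6, 0.28 for Igfbp7 and -0.012 for Pappa, and 4 pathway genes at an unadjusted p under 0.05 (among them Adam12, Tmem219 and Pik3cb). The cause of these changes was not tested, beyond the samples left out.

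With 1 replicate left out, the members at an unadjusted p under 0.05 numbered 0 to 1, Igfbp2 being the 1 without diploid II. The pathway genes at that p numbered 1 to 3, and were 1 without tetraploid I (Irs2), without diploid I (Shc1) and without diploid III (Pik3cb). The probe sets at an adjusted p under 0.05 numbered 0 to 1, with 1 without tetraploid III and 1 without diploid II. The filter on dim probe sets kept 5 of the 10 genes, and no member had another probe set to try. Same-numbered samples deviated with r of -0.12, -0.14 and -0.34, and differently numbered ones with r from -0.17 to 0.31. With 3 samples per group these values cannot decide whether repeat numbers paired the samples, and the main fit did not pair them. With the repeat number as a replicate block there were 0 members and 3 pathway genes (Insr, Akt2 and Rictor) at an unadjusted p under 0.05. Dim values limit the size of any difference for Igfbp1, Igfbp2, Igfbp3, Igfbp5 and Igfbp6.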
